A study of Homo sapiens with 17 samples.

Results

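Transfer RNA genes were examined as 1 set of loci in CUT&Tag libraries of a human pluripotent stem cell line. CUT&Tag uses an antibody on chromatin to bring the transposase Tn5 to a site, where it cuts and tags the neighbouring DNA. The set holds the 439 genes that RefSeq annotates as tRNA on chromosomes 1 to 22 of GRCh38.p14, out of 465 tRNA genes and 59792 genes of any kind in the table. The remaining 26 tRNA genes lie in the mitochondrial genome (22) and on chromosome X (4) and were left out. Each gene is 70 to 108 bp long, with a median of 73 bp. Of the 439 loci, 55 lie no more than 1000 bp from the start or end of a protein-coding gene and 384 lie farther away. No measured value entered this choice.

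The cells were H1, an established human pluripotent stem cell line, and the study asked about HNRNPU, a nuclear RNA-binding protein. Cells received virus with 1 of 2 shRNAs against HNRNPU (shHNRNPU#1, shHNRNPU#2) or with a control shRNA against luciferase (shLUC), followed by puromycin selection, while the HNRNPU libraries came from cells that were not transfected. H3K4me1 and H3K27ac, histone marks of enhancers and of active enhancers and promoters, each had 2 repeats per shHNRNPU shRNA and 2 shLUC repeats. HNRNPU had 2 repeats, and POLIIS2P, an antibody name that the labels do not spell out, had 1 shHNRNPU#1 library and 2 shLUC repeats, which made 17 libraries in all. The primary antibodies listed in the protocol text include HNRNPU and H3K27ac but neither H3K4me1 nor POLIIS2P. Nothing in the labels says that repeats were separate cultures, so their spread may be technical. No library made without a primary antibody was analysed here.

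The titles and the file names of the 4 histone libraries of shLUC cells contradict each other on the antibody. The shares below are named after the titles, and both readings were compared for each histone mark, the titles' own (as labelled) and the opposite one (names exchanged). The lists held 34649 and 35526 summits for HNRNPU, 79949 to 87456 for POLIIS2P, 40487 to 85142 for H3K27ac and 147145 to 214333 for H3K4me1 in shHNRNPU cells. In shLUC cells there were 62449 and 90914 summits under the H3K4me1 title and 179137 and 181357 under the H3K27ac title. Read depth was unknown. Of 9 pluripotency genes in the table, only ZFP42 had a strong POLIIS2P summit at a gene end in all 3 libraries, and POU5F1, SOX2, LIN28B, SALL4 and DPPA4 had no POLIIS2P summit there in the shLUC libraries. None of 10 genes of differentiated cells had a strong POLIIS2P summit in all 3 libraries or a strong H3K27ac summit in all 4 shHNRNPU libraries. With summits of any score, POLIIS2P was present in all 3 libraries at 4 of these 10 genes (SOX17, GATA6, PAX6 and NEUROD1) and at 2 of the 9 pluripotency genes, so these markers did not separate the cell types by that rule.

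tRNA genes are transcribed by RNA polymerase III. In most of them the promoter lies inside the gene, in blocks called the A box and the B box. The factor TFIIIC binds these blocks before TFIIIB and the polymerase are recruited. The human genome carries many copies of these genes, often in clusters, and the product brings amino acids to the ribosome. A gene symbol such as TRP-TGG3-2 gives the amino acid in one letter (P, proline), the anticodon (TGG), a number for the sequence family and the number of the copy.

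The sequences of 14 tRNA genes could be read whole from RefSeq promoter windows of GRCh38.p14 that happen to span them, and the 8 shown here are those that the values below return to. Each is printed from its 5′ end on the strand that holds the B box motif, with the motif in capitals. The motifs searched were GTTCGANNC and GTTCAANNC on both strands.

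TRP-TGG3-2: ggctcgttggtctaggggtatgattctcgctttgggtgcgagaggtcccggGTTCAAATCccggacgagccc
TRP-TGG3-5: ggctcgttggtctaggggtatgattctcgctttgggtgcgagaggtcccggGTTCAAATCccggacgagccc
TRN-GTT4-1: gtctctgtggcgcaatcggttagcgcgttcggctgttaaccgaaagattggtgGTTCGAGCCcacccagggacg
TRN-GTT6-1: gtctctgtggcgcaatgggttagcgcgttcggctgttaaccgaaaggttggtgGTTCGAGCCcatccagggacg
TRR-ACG2-1: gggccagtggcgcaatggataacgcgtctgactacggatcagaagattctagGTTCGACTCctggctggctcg
TRI-TAT2-2: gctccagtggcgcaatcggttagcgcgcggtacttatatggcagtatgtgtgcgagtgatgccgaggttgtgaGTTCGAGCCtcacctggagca
TRG-CCC2-2: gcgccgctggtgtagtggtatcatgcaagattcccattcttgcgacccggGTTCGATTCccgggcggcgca
TRA-AGC2-2: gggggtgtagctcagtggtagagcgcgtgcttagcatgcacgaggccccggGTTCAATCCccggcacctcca

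These genes lie at chr14:20684016-20684087 on the + strand (TRP-TGG3-2), chr16:3188094-3188165 on the + strand (TRP-TGG3-5), chr1:16889677-16889750 on the + strand (TRN-GTT4-1) and chr1:143735920-143735993 on the - strand (TRN-GTT6-1). The others are at chr3:45688999-45689071 on the - strand (TRR-ACG2-1), chr6:27020346-27020439 on the + strand (TRI-TAT2-2), chr16:636736-636806 on the - strand (TRG-CCC2-2) and chr6:28863685-28863756 on the - strand (TRA-AGC2-2). All 14 sequences held a motif, 10 of them GTTCGANNC and 4 GTTCAANNC. Of 35116 promoter windows of 300 bp in the RefSeq table, 0.8287% held the former, 1.76% the latter and 2.59% either. The match describes the gene and says nothing about binding in these cells.

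HNRNPU summits were more frequent at tRNA loci than at the pooled other short noncoding RNA genes, with snRNA genes closest to them. A summit is the base of highest signal in a peak that the authors called, and a locus counted as occupied when a summit lay within 500 bp of the gene. Because lists differ in length, the shares below use the 20000 summits with the highest score of each library, called strong summits. A strong HNRNPU summit lay at 26.2% of the 439 loci in repeat 1 and at 26.0% in repeat 2, a mean of 26.1% ± 0.161 (SD, n = 2). Among 3188 other noncoding RNA genes of at most 300 bp, the shares in the same repeats were 4.71% and 4.42%. This pool consists mostly of 1793 miRNA and 1150 snoRNA genes, and its 150 snRNA genes alone reached 18.7% and 21.3%. Among 19126 protein-coding genes, 40.4% and 39.9% had such a summit within 500 bp of either end. The repeats differed by far less than the gene classes did. Loci are not replicates, so the differences between classes are given as descriptions.

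Proximity to a protein-coding gene went with a higher HNRNPU share. Near gene ends, 60% and 56.4% of the 55 loci had a strong HNRNPU summit, compared with 21.4% and 21.6% of the 384 loci farther away. The loci away from gene ends were above the pooled short noncoding genes in both repeats and at about the level of the snRNA genes. The pooled genes and the snRNA genes were not split by distance, so they include genes near gene ends. At the 1000 bp border, TRS-TGA1-1 (909 bp from CTNNA3), TRT-AGT5-1 (947 bp from PER1) and TRX-CAT1-2 (992 bp from H4C8) fell just inside, with mean HNRNPU percentiles of 77.8, 70.4 and 0. TRL-CAA4-1 (1004 bp from PGBD2), TRV-AAC1-1 (1094 bp from MYNN) and TRT-AGT1-1 (1112 bp from BORCS6) fell just outside, with 69.7, 0 and 0. The percentile is the rank of the best summit at the locus among all summits of that list by score, with 100 for the highest, and 0 means that no summit lay within 500 bp.

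Strong POLIIS2P summits followed the same order of gene classes, with lower shares than HNRNPU at tRNA loci and protein-coding gene ends. A strong POLIIS2P summit lay at 12.8% and 12.3% of the tRNA loci in the shLUC repeats and at 12.3% in the shHNRNPU#1 library (95% Wilson interval 9.55% to 15.7%, counting error only). Other short noncoding genes gave 3.89% to 4.61% in these 3 libraries and protein-coding gene ends 31.6% to 33.4%. Near gene ends, 29.1% to 34.5% of the tRNA loci had a strong POLIIS2P summit, and away from them 9.64% to 9.90% did.

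Strong histone summits were less frequent than those of HNRNPU or POLIIS2P at the tRNA loci in every library. H3K27ac in shHNRNPU cells reached 4.56%, 2.96%, 3.42% and 2.28% of the tRNA loci, and the libraries labelled H3K4me1 shLUC reached 2.73% and 3.64%. H3K4me1 in shHNRNPU cells gave 0% and 0.228% for shHNRNPU#1 and 0.228% and 0% for shHNRNPU#2. Both libraries labelled H3K27ac shLUC gave 0 of 439 loci, which allows a share of up to 0.683%. In the 4 H3K27ac libraries of shHNRNPU cells the rate per locus was higher near gene ends, with 7.27% to 18.2% of those 55 loci against 1.56% to 2.60% of the 384 others. At other short noncoding genes the same libraries gave a mean of 3.40% ± 0.178 (SD, n = 4), close to the 3.30% ± 0.957 (SD, n = 4) of the tRNA loci, and at protein-coding gene ends they gave 19.8% to 23.5%. The libraries labelled H3K4me1 shLUC gave 3.86% and 3.76% at other short noncoding genes. The strong cut is stricter in longer lists. Strong summits began at percentile 86.4 to 90.7 in H3K4me1 of shHNRNPU cells, 50.7 to 76.5 in H3K27ac and 42.3 and 43.3 in HNRNPU. With summits of any score, H3K4me1 of shHNRNPU cells reached 8.88% to 17.5% of the tRNA loci, above the 4.56% to 8.66% of H3K27ac. The libraries labelled H3K27ac shLUC then reached 11.6% and 7.29%, and HNRNPU 31.9% and 31.4%.

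**Figure D1:**
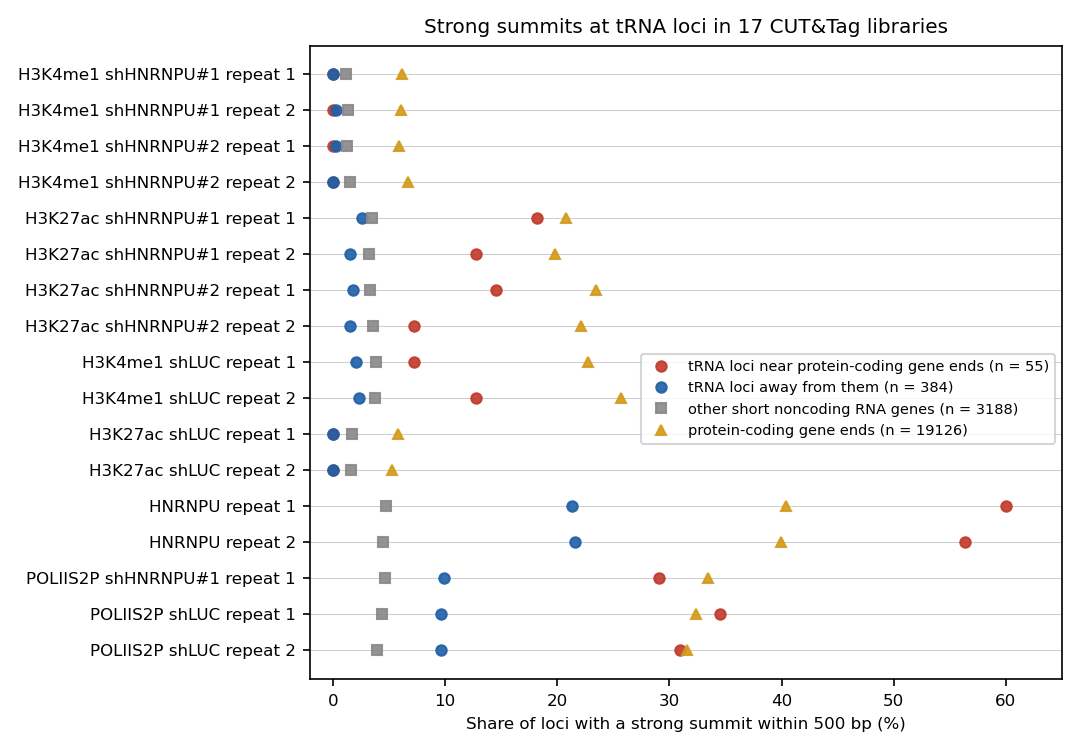
Share of loci with a strong summit within 500 bp (x axis, percent) in each of the 17 libraries (y axis, named after the sample titles), for tRNA loci near protein-coding gene ends (red), tRNA loci away from them (blue), other short noncoding RNA genes (grey) and protein-coding gene ends (gold). HNRNPU reached 60% and 56.4% of the near loci and 21.4% and 21.6% of the others, and no histone library exceeded 18.2% of the near loci.

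With every deposited summit counted, 101 of the 439 loci (23.01%) carried an HNRNPU summit in both repeats, 76 in 1 repeat only and 262 in neither. The background by the same rule was 4.3% of the other short noncoding genes and 40.6% of the protein-coding genes. Of the tRNA loci with a summit in repeat 1, 72.1% also had one in repeat 2, close to the 73.7% of other short noncoding genes and below the 84.7% of protein-coding genes. The 101 loci split into 30 of the 55 near gene ends (54.5%) and 71 of the 384 others (18.5%). Loci within 1000 bp of each other can share a summit, and after chaining them the 439 loci formed 362 sites, of which 87 had HNRNPU in both repeats. At the 101 loci the best summit ranged from percentile 1.88 to 99.3 in repeat 1, with a median of 75.02, and from 4.88 to 98.3 in repeat 2, with a median of 76.8.

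A POLIIS2P summit was present in all 3 libraries at 83 loci (18.9%), in 2 at 29, in 1 at 52 and in none at 275. By the same rule it was present at 6.21% of the other short noncoding genes and 44.7% of the protein-coding genes. Near gene ends 22 loci (40.0%) qualified, and 61 of the others (15.9%) did. The median percentile at the 83 loci was 80.3 in the shHNRNPU#1 library and 85.2 and 84.7 in the shLUC repeats.

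The HNRNPU and POLIIS2P loci overlapped in large part. HNRNPU in both repeats and POLIIS2P in all 3 libraries coincided at 60 loci, which is 59.4% of the HNRNPU loci and 72.3% of the POLIIS2P loci. Away from gene ends the overlap was 42 loci, or 59.2% of the HNRNPU loci and 68.9% of the POLIIS2P loci. Without any POLIIS2P summit there were 12 HNRNPU loci, and without any HNRNPU summit there were 13 POLIIS2P loci. In single POLIIS2P libraries, 71.3% to 78.2% of the 101 HNRNPU loci had a summit, against 8.02% to 9.16% of the 262 loci without HNRNPU. The HNRNPU libraries came from untransfected cells and the POLIIS2P libraries from transfected cells, so these are values from different cultures. The same overlap was not counted at other gene classes, so it is not read as particular to tRNA loci.

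Histone summits also concentrated at the HNRNPU loci. At least 1 of the 12 histone lists had a summit of any score at 72 of the 101 HNRNPU loci (71.3%) and at 69 of the 338 remaining loci (20.4%). In H3K27ac libraries of shHNRNPU cells, 15.8% to 28.7% of the HNRNPU loci had a summit, against 0.382% to 1.15% of the 262 loci without HNRNPU. For H3K4me1 the shares were 19.8% to 39.6% and 4.20% to 8.40%. The libraries labelled H3K4me1 shLUC gave 22.8% and 33.7% at HNRNPU loci and those labelled H3K27ac shLUC 18.8% and 26.7%. For histone summits too, the values come from different cultures than those of HNRNPU, and the overlap was not counted at other gene classes. No locus had a summit in all 17 lists, 238 had a summit in at least 1 list, and 201 had none in any.

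**Figure D2:**
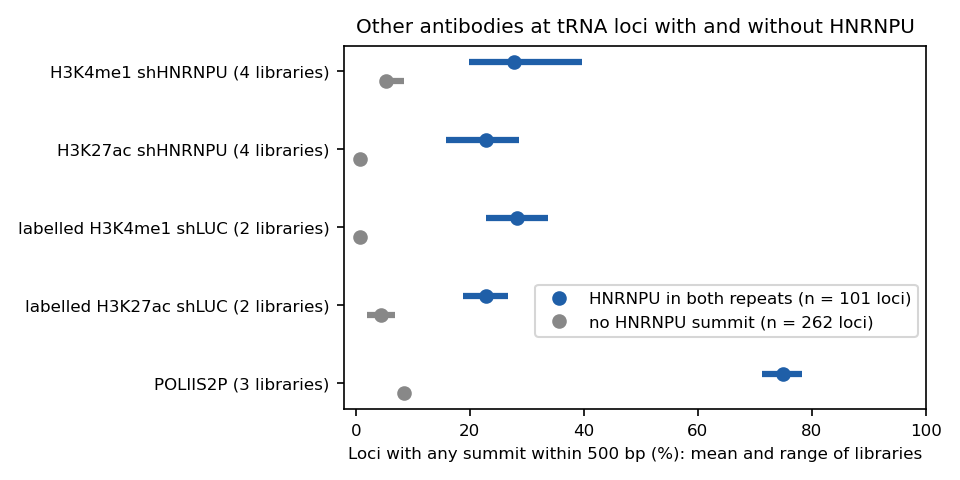
Share of tRNA loci with any summit within 500 bp (x axis, percent) for 5 sets of libraries (y axis), at the 101 loci with HNRNPU in both repeats (blue) and the 262 loci without an HNRNPU summit (grey). Points are means over the libraries and bars the range between the lowest and the highest library, and the POLIIS2P range of 71.3% to 78.2% at HNRNPU loci lies above every other range.

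HNRNPU and POLIIS2P summits sat close to the tRNA gene itself. This was measured at the 384 loci away from gene ends, over summits within 2000 bp of the centre of the nearest such gene. An even spread around a gene without close neighbours would put 10% under 200 bp. Where tRNA genes lie close together it would put more there. In the HNRNPU repeats, 48.4% of 124 and 41.3% of 126 summits lay under 200 bp, at median distances of 225.5 and 257 bp. In the POLIIS2P libraries 48.1% to 49.6% did, at medians of 204 to 219 bp. H3K4me1 summits in shHNRNPU cells were spread more widely, with 16.3% to 20.8% under 200 bp and medians of 520.5 to 697.5 bp. H3K27ac gave 8.33% to 18.2% and medians of 460.5 to 557.5 bp over 22 to 40 summits per library. The ranges of HNRNPU and of POLIIS2P did not overlap those of the histone libraries of shHNRNPU cells.

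**Figure D3:**
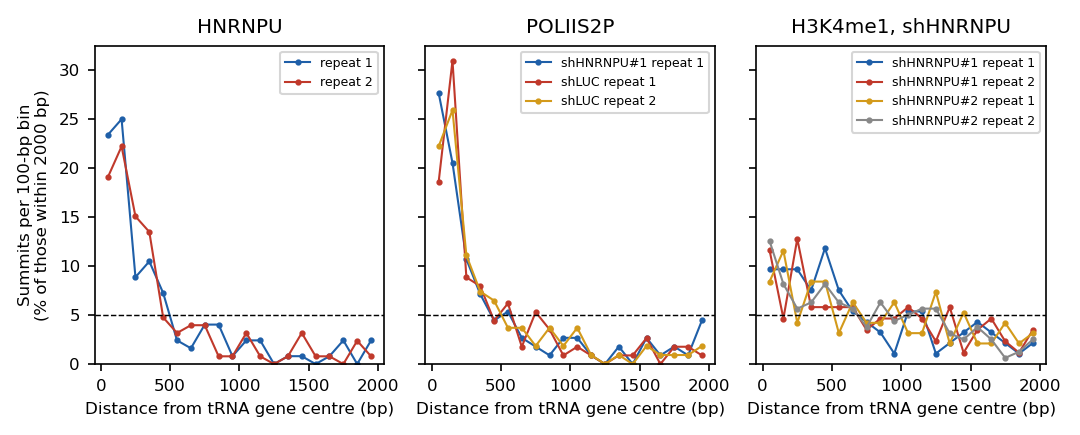
Distance of summits from the centre of the nearest tRNA gene away from protein-coding gene ends (x axis, bp) against the share of summits per 100-bp bin (y axis, percent of the summits within 2000 bp), for each HNRNPU, POLIIS2P and shHNRNPU H3K4me1 library. The dashed line is an even spread around a gene without close neighbours. HNRNPU and POLIIS2P peak within 200 bp, where they hold 41.3% to 49.6% of the summits, and H3K4me1 holds 16.3% to 20.8% there.

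HNRNPU occupancy differed by genome region. Chromosome 6 between 25 and 30 Mb, where a large array of tRNA genes lies among histone genes, contained 144 of the 439 loci. HNRNPU was present in both repeats at 12 of these (8.33%) and POLIIS2P in all 3 libraries at 4, and 88 had no summit in any list. Chromosome 1 held 98 loci, of which 14 (14.3%) had HNRNPU and 12 had POLIIS2P. The chromosomes other than 1 and 6 held 186 loci, of which 74 (39.8%) had HNRNPU and 67 (36.0%) had POLIIS2P. The order was the same among loci away from gene ends alone, at 7.28% of 151 on chromosome 6, 12.8% of 94 on chromosome 1 and 34.5% of 139 elsewhere. Most near loci, 47 of 55, lay on the other chromosomes, and 55.3% of them had HNRNPU. The placement of reads that match several copies is not given, and its part in these shares was not tested.

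The 3 largest clusters differed in their HNRNPU counts, to be read against the 101 of 439 loci overall. Chained at 10000 bp, the loci formed 222 groups, 138 of them of 1 gene. The largest, on chromosome 1 from 161440171 to 161480636, holds 24 genes of 4 isotypes, and 1 had HNRNPU in both repeats, none had POLIIS2P in all 3 libraries and 4 had a summit in any list. The next, on chromosome 16 from 3150674 to 3192060, holds 14 genes, of which 4 had HNRNPU and 3 had POLIIS2P. The third, on chromosome 6 from 26299677 to 26331515, holds 12 genes with neither. Copies of the same families, such as TRG-TCC2 and TRD-GTC2, recur within the largest group. How reads that match several copies were placed is not given, so absent summits there are not read as lack of binding.

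All but 1 amino acid group had at least 1 gene with HNRNPU in both repeats. Over all 439 loci, 101 (23.01%) had HNRNPU in both repeats and 83 (18.9%) had POLIIS2P in all 3 libraries. Proline genes led with 10 of 20 (50%), followed among groups of 10 or more by arginine with 11 of 26 (42.3%) and tyrosine with 5 of 13 (38.5%). Leucine (25%) and cysteine (24.1%) lay close to the HNRNPU share of all loci. Whether groups of these sizes depart from the shares of all loci was not tested. Alanine, the most numerous, had 5 of 38 (13.2%), and asparagine and serine had 3 of 26 each (11.5%). None of the 7 tryptophan genes had HNRNPU in both repeats, although 3 had POLIIS2P in all 3 libraries. For POLIIS2P, alanine had the lowest share among groups of 10 or more, at 1 of 38. Loci near a protein-coding gene end made up 8 of the 26 arginine loci, 2 of the 20 proline loci, 5 of the 26 serine loci and none of the 7 tryptophan loci, and the part of position in these counts was not tested.

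By anticodon, 42 of 48 groups had a gene with HNRNPU in both repeats. The groups without one were glycine GCC (0 of 13), valine AAC (0 of 10), serine AGA (0 of 10), leucine TAG, tryptophan CCA and tyrosine ATA. The share over all 439 loci was 23.01%, and whether groups of these sizes depart from it was not tested. Glycine, valine and serine genes with other anticodons did have it, for example 3 of 11 for glycine CCC, 4 of 15 for valine CAC and 1 of 4 for serine CGA.

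**Figure D4:**
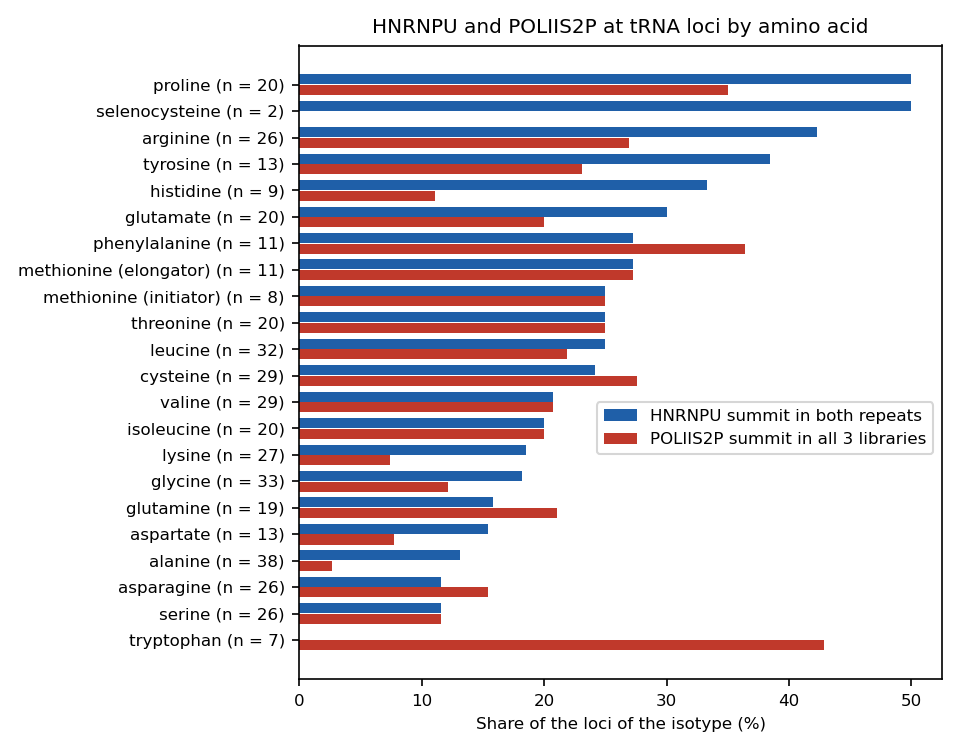
Share of the tRNA loci of each amino acid group (y axis, with the number of loci) that had an HNRNPU summit in both repeats (blue) or a POLIIS2P summit in all 3 libraries (red), in percent of the group (x axis). Proline reaches 50% for HNRNPU over 20 loci, and the 50% of selenocysteine rests on 1 of 2 loci. Over all 439 loci the shares were 23.01% for HNRNPU and 18.9% for POLIIS2P.

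Copies of 1 sequence family were often unequal, but the number of unequal families expected from the HNRNPU share alone was not computed. HNRNPU in both repeats lay at 34.1% of loci in families of 2 to 4 loci and 21.7% in families of 5 or more. Families of 1 locus gave 21.3%. At such shares most copies lack HNRNPU, so the counts below are given as descriptions and not as a property of families. Of 55 families with at least 2 loci, 29 had HNRNPU in both repeats at some copies and no HNRNPU summit at others, 3 had it at every copy and 20 at none. In TRP-AGG2, with 8 copies, 4 had HNRNPU and 2 had no HNRNPU summit, and in TRD-GTC2, with 11 copies, 1 had it and 7 had none. TRV-AAC1, with 5 copies, had none in either repeat. Genes of family 1, the lowest number for an anticodon, had HNRNPU at 35 of 112 loci (31.3%), families 2 to 5 at 58 of 231 (25.1%), and families 6 and above at 8 of 76 (10.5%). The 20 loci without a family number had none. Among loci away from gene ends the shares were 21 of 91 (23.1%) for family 1, 43 of 201 (21.4%) for families 2 to 5 and 7 of 73 (9.59%) for families 6 and above.

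Of 2 pairs of identical sequences among the 14, 1 was unequal in HNRNPU and 1 was not. TRP-TGG3-2, 90 bp from the ribonuclease gene ANG, and TRP-TGG3-5, 39 bp from the olfactory receptor gene OR1F1, are identical over 72 bases. HNRNPU stood at percentiles 44.9 and 71.7 at the former and had no summit at the latter, and TRP-TGG3-5 had no summit in any of the 17 lists. TRH-GTG1-3 and TRH-GTG1-9, the other identical pair, both lacked HNRNPU, and their only summit was POLIIS2P in shHNRNPU#1 at TRH-GTG1-9 (percentile 4.94). TRN-GTT4-1 and TRN-GTT6-1 differ at 3 of 74 bases. TRN-GTT4-1 had summits in 10 lists, with H3K27ac in shHNRNPU cells at 71.4, 0, 75.7 and 75.7 and HNRNPU at 0 and 40.4, and TRN-GTT6-1 had none in any list. TRA-AGC2-2 carries a B box motif and had no summit in any list either. How reads that match several copies were placed is not given in the sources used here.

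TRR-ACG2-1, an arginine gene 325 bp from SACM1L, and TRI-TAT2-2, an isoleucine gene in the chromosome 6 array, had HNRNPU in untransfected cells and H3K27ac in shHNRNPU cells. These values come from different cultures. Libraries labelled H3K27ac shLUC gave 0 and 0 at TRR-ACG2-1 and 29.1 and 35.4 at TRI-TAT2-2. Those labelled H3K4me1 shLUC gave 91.9 and 96.1 at TRR-ACG2-1 and 86.1 and 96.4 at TRI-TAT2-2. At TRR-ACG2-1, HNRNPU stood at 51.5 and 85.3, H3K27ac in shHNRNPU cells at 88.5, 91.2, 92.3 and 88.9, and POLIIS2P at 46.5, 86.0 and 76.1 (shHNRNPU#1, then the shLUC repeats). At TRI-TAT2-2, which lies 111877 bp from the nearest protein-coding gene end, HNRNPU stood at 88.4 and 77.1, H3K27ac at 85.7, 50.7, 97.3 and 96.0, and POLIIS2P at 80.6, 52.8 and 67.4. TRG-CCC2-2, 431 bp from METTL26, had HNRNPU at 56.1 and 61.9 and POLIIS2P at 90.5, 90.4 and 88.9, and no histone summit in any of the 12 lists. The 3 genes shared HNRNPU and POLIIS2P in every library and differed in the histone marks.

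The highest HNRNPU percentiles away from gene ends were at genes on 5 chromosomes. TRE-TTC2-1 (glutamate, chr13:44917927-44917998) led with 98.8 and 97.9, and its POLIIS2P percentiles were 85.3, 85.3 and 94.1. TRQ-TTG1-1 (glutamine, chr17:49192528-49192599) had 98.0 and 95.4, with POLIIS2P at 92.0, 97.6 and 90.7. TRL-CAG2-2 (leucine, chr16:57300480-57300562) had 95 and 97.0, with POLIIS2P at 85.7, 76.5 and 91.2. In shHNRNPU cells its H3K4me1 percentiles were 50.5, 34.3, 68.6 and 65.5, without an H3K27ac summit. Libraries labelled H3K27ac shLUC had 71.8 and 66.6 at this locus, and those labelled H3K4me1 shLUC had no summit. All 3 thus carried HNRNPU near the top of both lists together with POLIIS2P.

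TRH-GTG1-7 (histidine, chr15:45198606-45198677) had 95.6 and 95.7, and TRT-AGT1-3 (threonine, chr19:33177057-33177130) had 93.6 and 93.3. TRE-TTC2-1 had a summit in 15 of the 17 lists and TRQ-TTG1-1 in 16, the most at any locus together with TRY-GTA5-1 beside TRIM55, whereas TRT-AGT1-3 had a summit in 9. HNRNPU stood above percentile 93 in both lists at each of the 5 genes.

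Near gene ends the leading loci were TRG-TCC1-1 at DPP9 (99.3 and 95.3), TRR-CCT4-1 at LUC7L2 (95.6 and 98.3), TRG-CCC2-1 at TIA1 (96.0 and 97.4), TRC-GCA4-1 at LASP1 (95.6 and 91.6) and TRI-TAT1-1 at PLEKHG2 (90.7 and 96.0). TRG-CCC2-1, a glycine gene at chr2:70248991-70249061, had POLIIS2P at 89.3, 94.5 and 91.9 and no histone summit in any list. At a gene end, a summit for the tRNA gene and one for the protein-coding gene cannot be told apart at this distance.

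The highest POLIIS2P percentiles away from gene ends included loci without HNRNPU. TRT-AGT1-2 (threonine, chr17:8226235-8226308) stands for a site of 3 genes with 98.7 in shHNRNPU#1 and 99.2 and 99.3 in shLUC, and it had no summit in any HNRNPU or histone list. TRL-AAG3-1 (leucine, chr6:28989002-28989083) had 97.0, 98.6 and 97.5 and no HNRNPU summit. By contrast TRD-GTC2-10 (aspartate, chr12:124939647-124939718) had 98.7, 98.9 and 99.1 with HNRNPU at 94.0 and 82.7. TRM-CAT1-1 (elongator methionine, chromosome 8) had 98.5, 98.7 and 99.1 with HNRNPU at 69.9 and 62.8, and TRP-AGG2-3 (proline, chr7:128783450-128783521) had 95.6, 96.9 and 97.0 with HNRNPU at 88.4 and 91.3. POLIIS2P at the top of its lists therefore occurred both with and without HNRNPU.

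**Figure D5:**
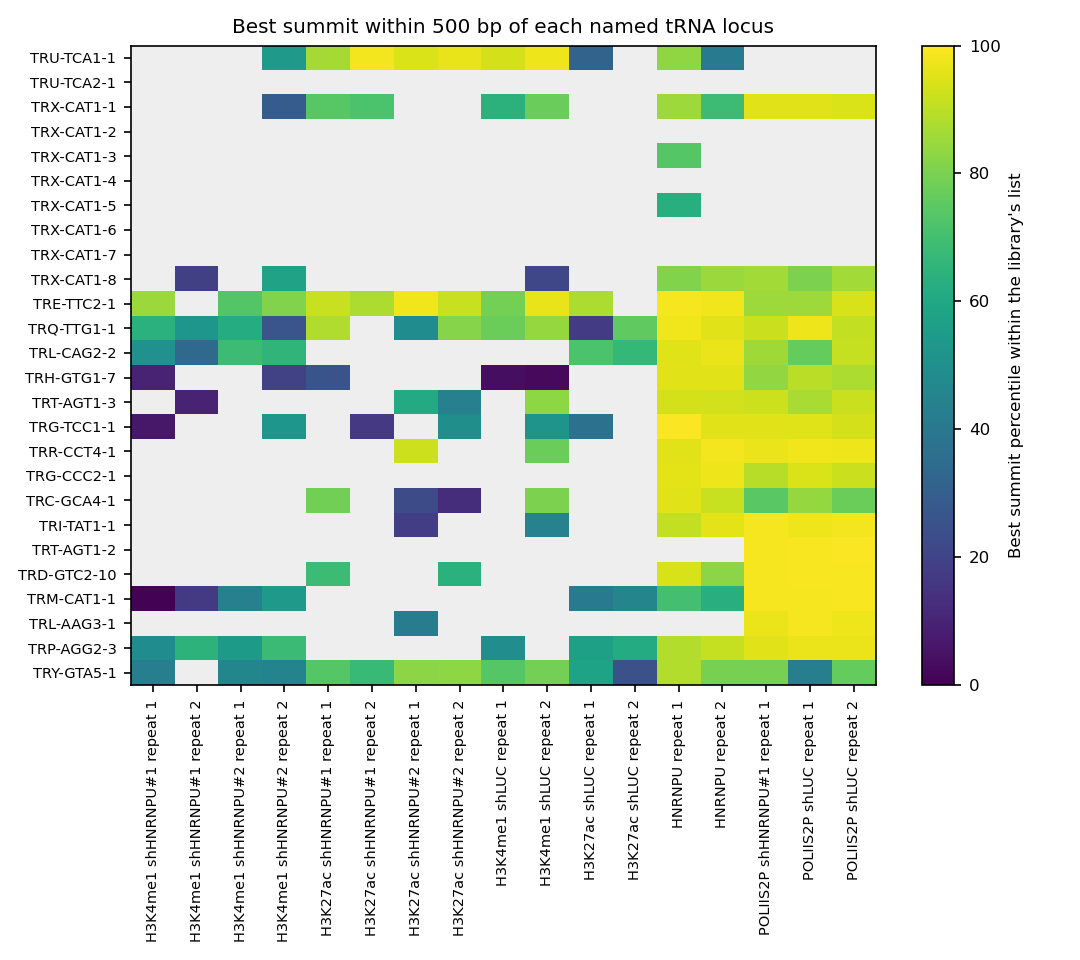
Best summit percentile (colour scale, 0 to 100) within 500 bp of each named tRNA locus (y axis) in each of the 17 libraries (x axis, named after the sample titles), with light grey where no summit lay within 500 bp. TRT-AGT1-2 is filled only in the 3 POLIIS2P libraries, at 98.7 to 99.3, and TRU-TCA1-1 is filled in both HNRNPU libraries and in 8 of the 12 histone libraries and empty in the POLIIS2P libraries.

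The selenocysteine tRNA reads a stop codon, and the initiator methionine tRNA starts translation. TRU-TCA1-1 (chr19:45478601-45478687, 3422 bp from FOSB) had H3K27ac in shHNRNPU cells at 86.3, 98.4, 94.3 and 96.7 and HNRNPU at 83.6 and 40.8, and no POLIIS2P summit in any of the 3 libraries. TRU-TCA2-1 on chromosome 22 had no summit in any list. Of the 8 initiator methionine genes, TRX-CAT1-1 (chr1:153671250-153671321, 257 bp from ILF2) and TRX-CAT1-8 (chr17:82494721-82494792) had HNRNPU in both repeats and POLIIS2P in all 3 libraries. HNRNPU stood at 85.3 and 68.4 at TRX-CAT1-1 and at 81.2 and 85.1 at TRX-CAT1-8. The 6 copies on chromosome 6 were nearly empty, with HNRNPU in 1 repeat at TRX-CAT1-3 (73.7) and TRX-CAT1-5 (62.9) and no summit in any list at the other 4.

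The comparison of shHNRNPU with shLUC depended on which antibody the shLUC histone libraries held, at tRNA loci and at protein-coding genes alike. As labelled, the H3K4me1 share was 0.114% ± 0.132 (SD, n = 4) in shHNRNPU and 3.19% ± 0.644 (SD, n = 2) in shLUC, a difference of -3.08 percentage points (two-sided exact permutation p = 0.0667). As labelled, the H3K27ac share was 3.30% ± 0.957 (SD, n = 4) in shHNRNPU and 0% in both shLUC libraries, a difference of 3.30 points (two-sided exact permutation p = 0.0667). In the same libraries the share of protein-coding genes went from a mean of 24.2% in shLUC to 6.19% in shHNRNPU for H3K4me1 and from 5.54% to 21.5% for H3K27ac. The groups of tRNA shares did not overlap in either case, and 0.0667 is the smallest p that 4 against 2 libraries allow, so no difference could pass 0.05.

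With the names exchanged the groups overlapped. H3K4me1 differed by 0.114 points (exact permutation p = 0.467), from 0% in both exchanged shLUC libraries. H3K27ac differed by 0.114 points (exact permutation p = 0.933), with 2.28% to 4.56% in shHNRNPU against 2.73% and 3.64%. The log2 ratio of the tRNA share to the protein-coding share, which asks whether tRNA loci moved differently from protein-coding genes, was -2.75 ± 0.45 (SD, n = 4) in shHNRNPU and -2.94 ± 0.17 (SD, n = 2) in shLUC for the exchanged H3K27ac comparison, a difference of 0.19 (exact permutation p = 0.600). Joining both histone antibodies per condition and repeat, which does not depend on the names, gave 3.42% ± 0.948 (SD, n = 4) against 3.19% ± 0.644 (SD, n = 2), a difference of 0.228 points (exact permutation p = 0.800). That difference is smaller than the spread between repeats. Its sign turned in 5 of 16 alternatives, for example to -0.342 points with the 10000 strongest summits.

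At single loci, the percentiles of the shHNRNPU and shLUC libraries failed to overlap less often than over all 22753 features tested, in the histone comparisons. For H3K4me1 as labelled, 11 of 439 tRNA loci (2.51%) were higher in every shHNRNPU library, against a background of 13.4%, and 19 (4.33%) were lower, against 17.7%. For H3K27ac as labelled, 5 (1.14%) were higher, against 11.1%, and 17 (3.87%) were lower, against 17.5%. With names exchanged, H3K4me1 had 4 loci higher (0.911%), against 3.03%, and 1 lower (0.228%), against 3.08%. Exchanged H3K27ac had 0 loci higher, against 0.519%, and 4 lower (0.911%), against 5.72%. A locus without summits cannot differ, and 201 of the tRNA loci had none in any list.

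Of the 5 leading loci lower in H3K4me1 and the 5 higher in H3K27ac as labelled, 3 were shared. TRR-ACG2-1 had H3K4me1 at 0, 0, 0 and 33.6 in shHNRNPU and at 91.9 and 96.1 in libraries labelled H3K4me1 shLUC, and it had H3K27ac at 88.5 to 92.3 in shHNRNPU and 0 in both libraries labelled H3K27ac shLUC. TRU-TCA1-1 and TRI-TAT2-2 followed the same course, with 93.6 and 97.4 and with 86.1 and 96.4 in libraries labelled H3K4me1 shLUC. With the names exchanged, H3K27ac at TRR-ACG2-1 was 88.5 to 92.3 in shHNRNPU against 91.9 and 96.1 in shLUC, so the groups overlapped. They overlapped at TRU-TCA1-1 and TRI-TAT2-2 as well. On the other side, 3 loci, TRR-TCT4-1, TRL-CAG2-2 and TRY-GTA4-1, were higher in H3K4me1 and lower in H3K27ac in shHNRNPU cells as labelled. TRY-GTA4-1, a tyrosine gene, had H3K4me1 at 78.7, 69.9, 79.3 and 81.1 against 0 and 9.0 as labelled and against 66.2 and 62.2 with the names exchanged. The gap between the groups was thus much narrower with the names exchanged.

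POLIIS2P could be compared in 1 shHNRNPU#1 library and 2 shLUC libraries, so no test was possible. The tRNA share was 12.3% against a shLUC mean of 12.5% ± 0.322 (SD, n = 2), a difference of -0.228 points that is smaller than the spread between the shLUC repeats. At the 83 loci with a summit in all 3 libraries, the median percentile difference between shHNRNPU#1 and the shLUC mean was -0.742, with 33 loci above 0 and 50 below. The shLUC repeats differed from each other by a median of 1.32 at the same loci, and the median at 8553 protein-coding genes was 0.116. A summit in shHNRNPU#1 and in neither shLUC library occurred at 23 loci (5.24%), against a background of 3.02%, and one in both shLUC libraries but not in shHNRNPU#1 at 10 loci (2.28%), against 3.26%. The leading example of the former was TRD-GTC1-1 (aspartate, chromosome 12) at percentile 80.3, and of the latter TRF-GAA2-1 (phenylalanine, chromosome 11) at 69.2 and 60.6. These counts rest on 1 shHNRNPU library and have no replicate check.

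The protein-coding genes of the tRNA pathway carried HNRNPU more often than the tRNA genes. HNRNPU lay within 500 bp of a gene end in both repeats at 14 of 18 genes for initiation factors and regulators of RNA polymerase III, 11 of 18 genes for its subunits and 20 of 26 genes for tRNA processing. All protein-coding genes gave 40.6%. The highest values were at RPP40, a ribonuclease P subunit (mean percentile 99.7), TRMT6, a tRNA methyltransferase subunit (99.1), GTF3C2, a TFIIIC subunit (98.1), and POLR3D, a polymerase subunit (97.3). MAF1, the repressor of RNA polymerase III, stood at 96.2. Among genes of these lists without an HNRNPU summit, POLR3G, the subunit paralog known from pluripotent cells, had POLIIS2P at a mean of 95.3 in shLUC.

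Other transcripts of RNA polymerase III were uneven as well. HNRNPU was present in both repeats at 11 of 37 genes (29.7%). By the same rule it was present at 101 of the 439 tRNA loci (23.01%) and at 4.3% of the other short noncoding genes. RPPH1, the RNA of ribonuclease P, stood at a mean percentile of 99.4, RN7SL2 and RN7SL1, the RNAs of the signal recognition particle, at 99.3 and 98.8, RNU6ATAC at 98.8, RN7SK at 98.0 and RMRP at 96.0. Of the 17 5S ribosomal RNA genes only RNA5S6 had HNRNPU in both repeats. The leading tRNA gene, TRE-TTC2-1, had a mean of 98.3, close to these values.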

How the data were processed

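The 17 libraries were profiled by CUT&Tag in H1 cells, and the titles gave each sample's group and repeat number. The submitters' processing notes name cutadapt, Bowtie2, SAMtools, MACS2, deepTools and the build hg38, without versions or settings. The authors deposited 1 summit list per library, in which each summit has a score that was read as −log10 of a p-value or q-value from the MACS2 layout. The lowest deposited score was 2.00 in the histone lists and 1.30 in the HNRNPU and POLIIS2P lists. A further deposited list, which the descriptions of both HNRNPU samples name, holds 48095 intervals, all with score 0. How it was made is not given, and only its positions were used. Peaks were taken as called per library. Depth is unknown and list length does not replace it.

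The paper listed with the series describes other cells, so no design was taken from it. Positions of 439 tRNA genes came from RefSeq on GRCh38.p14. For each locus the best within-list percentile of a summit within 500 bp was computed in every list, ties taking their mean rank. A share counts loci with 1 of the 20000 highest-scoring summits within 500 bp. Other short noncoding RNA genes were those of at most 300 bp, and protein-coding genes were read at both ends because the table used has no strand. Shares of 4 shHNRNPU and 2 shLUC libraries were compared by two-sided exact permutation tests over 15 assignments. Wilson intervals (95%) and the 3-count floor cover counting error only. All repeats differed, with 2.15% to 8.70% of summits at the same base. Same-numbered samples deviated together only weakly (correlations of -0.148 to 0.250), so the numbers were not taken to pair samples.

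Named loci were all TRU and TRX-CAT genes, the 5 sites away from and the 5 near gene ends with the highest mean HNRNPU percentile, the 5 sites away with the highest mean POLIIS2P percentile in shLUC, the 3 largest gene groups and up to 5 loci per direction and comparison without overlap. The loci printed as sequences, those at the 1000 bp border, the families, anticodons and TRY-GTA5-1 were named in addition, after their values were seen. Members, lists and rules were chosen with earlier results of these data known. Alternatives changed the number of summits, the distance, the locus definition, the repeats, the shRNA and the block. The script was tested on simulated data, where it recovered 60 of 60 planted loci. The other simulated summits lay far from all tRNA genes, so this checked the calculation only and not dense lists. Python 3.11.15, numpy 2.4.6, pandas 2.3.3, scipy 1.17.1 and matplotlib 3.10.9 were used.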

Additional observations from a re-analysis of the deposited data

How the results depend on the processing

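With all deposited summits, exchanged H3K4me1 (2.45 percentage points) and the joined share (0.285) kept their direction, while the H3K4me1 difference as labelled turned to 3.25 percentage points, H3K27ac as labelled to -2.79, exchanged H3K27ac to -1.99, its log2 ratio to -0.18 and POLIIS2P to 1.82. The 10000 strongest summits gave -0.342 for exchanged H3K27ac, -0.12 for its log2 ratio, -0.342 for the joined share and -0.683 for POLIIS2P. Leaving out loci near gene ends gave -0.326, -0.0899, -0.195 and 0.260 in the same order. The shHNRNPU#2 libraries alone gave -0.342, -0.0918 and -0.228 for the first 3 of these, and chained sites gave -0.138 for exchanged H3K27ac and -0.691 for POLIIS2P. POLIIS2P was -0.683 within 250 bp, -2.16 within 1000 bp and -3.64 at loci near gene ends. The cause of these shifts was not tested.

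Leaving out single libraries gave ranges of -3.53 to -2.62 and 0.0759 to 0.152 points for H3K4me1 as labelled and exchanged. For H3K27ac the ranges were 2.89 to 3.64 as labelled and -0.342 to 0.569 exchanged (log2 ratio 0.00 to 0.37). The joined share ranged from -0.228 to 0.683, POLIIS2P from -0.456 to 0 and HNRNPU from 26.0% to 26.2%. Exchanged H3K27ac turned sign without shHNRNPU#1 repeat 1 (-0.304) or shLUC repeat 1 (-0.342), and the joined share did so without the same repeats (-0.152 and -0.228).

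The HNRNPU share was 31.7% with all summits, 15.3% with 10000, 18.1% within 250 bp, 33.1% within 1000 bp, 26.8% of chained sites, 21.5% away from and 58.2% near gene ends, and 37.4% with the list for both repeats. Without chromosomes 1 and 6, an alternative chosen after seeing the data, the share with a strong summit was 42.5%.

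The repeat numbers were shared without evidence of pairing. With the replicate block the differences were -3.08 and 0.114 points for H3K4me1 as labelled and exchanged, 3.30 and 0.114 for H3K27ac, 0.19 for its log2 ratio and 0.228 for the joined share, and the smallest p possible is 0.111, so no call changed. The other log2 ratios were not computed, because a library had 0 loci, and HNRNPU and POLIIS2P had no test to block.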

Other observations

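Among the other short noncoding RNA genes, a strong HNRNPU summit lay at a mean of 20% ± 1.89 (SD, n = 2 repeats) of 150 snRNA genes, 5.21% ± 0.434 of 1793 miRNA genes and 1.13% ± 0.123 of 1150 snoRNA genes. The list that the authors deposited for both HNRNPU repeats together had an interval at 164 of the 439 tRNA loci, including 95 of the 101 with a summit in both separate lists.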
